A study of Mus musculus with 56 samples.

Results

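Pspc1, Nono and Sfpq encode the 3 mouse members of the DBHS family of RNA-binding proteins, the core proteins of the nuclear bodies known as paraspeckles. They were chosen as a family, with results of these data already known, since the daily rhythm of Pspc1 differed between feeding regimens more than that of nearly every other gene. All 3 were found by gene symbol among the 17564 genes measured, and all 3 were among the 16234 genes tested. RNA came from the anterior hypothalamus of 56 female C57BL/6J mice aged 9 weeks, sequenced as polyadenylated RNA in bulk tissue. All mice were kept under 12 h of light and 12 h of darkness, with zeitgeber time (ZT) counted in hours from lights on, and ate normal chow in a restricted window for 7 days. The 28 DRF mice (daytime-restricted feeding) had food from ZT0 to ZT12, and the 28 NRF mice (nighttime-restricted feeding) from ZT12 to ZT24. In each regimen 4 mice were taken at each of 7 times, every 4 h from ZT0 to ZT24, so each mouse was measured once and the ZT24 mice were other animals than the ZT0 mice. There were no freely fed mice, so DRF and NRF could be compared only with each other.

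Paraspeckles form around a long noncoding RNA, Neat1, to which DBHS proteins bind. PSPC1, NONO and SFPQ pair with one another as dimers through a shared set of domains, and they also act outside paraspeckles in transcription, splicing and DNA repair. NONO and SFPQ are known partners of the PER proteins of the circadian clock. The values here are mRNA levels in a mixture of brain cells, and neither the proteins nor the number of paraspeckles was measured. In such bulk samples, a change in the number of cells that express a gene and a change in the RNA per cell cannot be told apart.

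The genes lie on different chromosomes, and their promoters are shown to let the letters near each start be compared. Pspc1 (gene ID 66645, GENCODE ENSMUSG00000021938.12) spans 56720710 to 56778316 on the minus strand of chromosome 14 in GRCm38, Nono (53610, ENSMUSG00000031311.17) spans 101429318 to 101448591 on the plus strand of chromosome X, and Sfpq (71514, ENSMUSG00000028820.13) spans 127021324 to 127037013 on the plus strand of chromosome 4. The windows run from 250 bases before to 50 bases after the RefSeq start on GRCm38.p6, read 5′ to 3′ on the strand of the gene, at chr14:56778269-56778568 (minus) for Pspc1, chrX:101429401-101429700 (plus) for Nono and chr4:127021051-127021350 (plus) for Sfpq. Capitals mark matches on either strand to 10 short motifs, and everything else is in lower case.
Pspc1: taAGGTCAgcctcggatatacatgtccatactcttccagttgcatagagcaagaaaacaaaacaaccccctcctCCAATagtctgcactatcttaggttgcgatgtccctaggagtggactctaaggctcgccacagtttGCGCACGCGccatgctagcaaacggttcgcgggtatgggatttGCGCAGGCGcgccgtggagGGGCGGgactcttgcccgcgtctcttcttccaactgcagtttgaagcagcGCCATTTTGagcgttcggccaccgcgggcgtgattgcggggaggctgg
Nono: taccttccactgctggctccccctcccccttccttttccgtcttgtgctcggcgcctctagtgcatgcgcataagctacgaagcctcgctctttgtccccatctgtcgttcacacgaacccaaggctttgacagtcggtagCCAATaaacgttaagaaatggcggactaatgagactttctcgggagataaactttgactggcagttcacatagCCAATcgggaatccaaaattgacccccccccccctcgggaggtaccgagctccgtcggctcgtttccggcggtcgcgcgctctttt
Sfpq: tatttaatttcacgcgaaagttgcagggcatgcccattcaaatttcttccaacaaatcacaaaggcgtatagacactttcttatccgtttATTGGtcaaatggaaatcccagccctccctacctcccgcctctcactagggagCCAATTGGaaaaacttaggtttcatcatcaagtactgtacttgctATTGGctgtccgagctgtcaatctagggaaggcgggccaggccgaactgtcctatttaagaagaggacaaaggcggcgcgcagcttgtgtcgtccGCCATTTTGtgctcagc
The clock-related letters searched were the E-box CACGTG and its variant CACGTT, the ROR element AGGTCA, the cAMP half-site TGACG and the FOXO site GTAAACA. The general promoter letters searched were the CCAAT box, the GC box GGGCGG, the TATA box TATAAA, the NRF1 site GCGCANGCG and the YY1 site GCCATNTTG. NRF1 here names a transcription factor and has no relation to the NRF feeding regimen. The general letters were picked with these sequences in view. Of the clock-related letters, only AGGTCA occurred, once, at the far end of the Pspc1 window, and 16.3% of all 32817 RefSeq promoter windows of this length hold it. The others searched for are in 7.15% (CACGTG), 4.69% (CACGTT), 20.8% (TGACG) and 3.65% (GTAAACA) of the windows. GGGCGG, in 35.6% of all windows, occurred once, in Pspc1, and TATAAA, in 13.6%, in none of the 3. The Pspc1 window held 2 matches to GCGCANGCG, which is in 6.24% of all windows. The CCAAT box, in 37.4% of all windows, occurred in all 3. The Sfpq window held 4 matches, 2 of them overlapping in CCAATTGG, the Nono window held 2 and the Pspc1 window 1. Pspc1 and Sfpq shared GCCATTTTG just after the start, a form of the YY1 letters that are in 2.50% of all windows. A match is a run of letters and not a measured binding site.

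**Figure D1:**
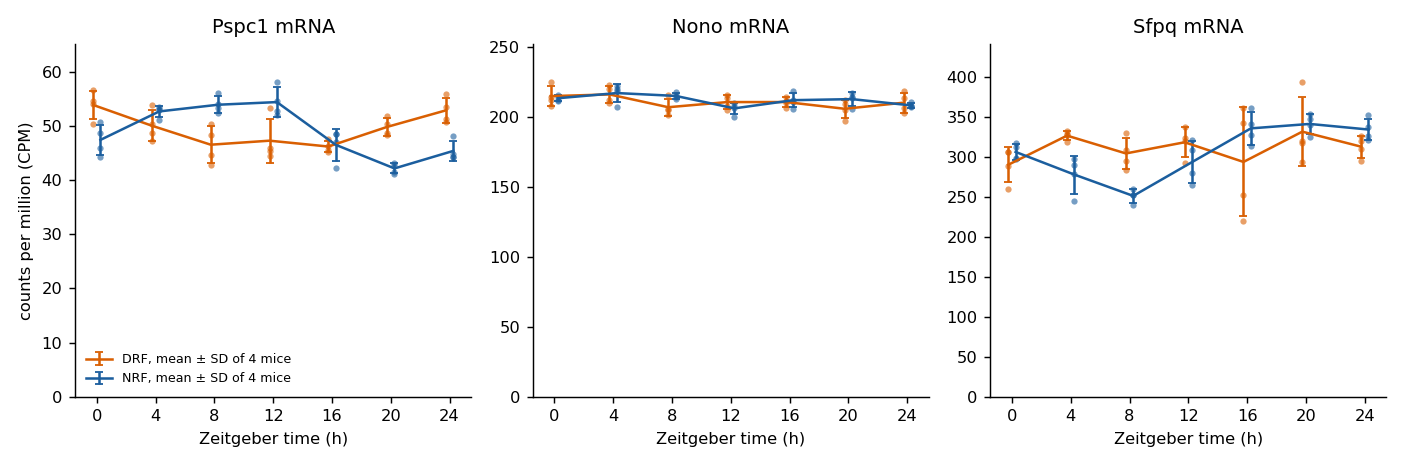
CPM (vertical axis from 0) of Pspc1, Nono and Sfpq against zeitgeber time (h) in DRF and NRF mice. Points are mice, and lines with bars give the mean ± SD of 4 mice. The mean of Pspc1 in NRF was 54.4 at ZT12 and 42.1 at ZT20, the means of Nono stayed between 206 and 217 in both regimens, and Sfpq in NRF ran opposite to Pspc1.

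Levels are given as CPM, normalized reads scaled to a fixed library total and recovered from the deposited values. Pspc1 was read from 1265 to 1789 reads per mouse and Nono from 6052 to 7350. At the lowest of these read numbers, counting error alone gives an SD of 2.81% for Pspc1 and 1.29% for Nono. Per kilobase of transcript, which allows genes to be compared, Sfpq was the most abundant in NRF at 64.5 ± 7.49 CPM per kilobase (SD, n = 28), followed by Nono at 48.5 ± 1.18 and Pspc1 at 8.53 ± 0.847. In DRF the order was the same, with 65.7 ± 7.03, 48.2 ± 1.47 and 8.63 ± 0.653. The Sfpq values rest on the GENCODE gene length, which could not be checked against whole reads. The ranges of Pspc1 and of the other two did not overlap in either regimen. Sfpq and Nono overlapped in both, since the lowest Sfpq value was 46.5 CPM per kilobase in DRF and the highest Nono value was 51.5.

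Pspc1, the founding paraspeckle protein's gene, was highest at different times of day in the regimens. Its rhythm is given as a description with no test, because the gene was chosen on it. In NRF it was highest from ZT4 to ZT12, the later light period before the night meal, and lowest at ZT20. In DRF it was highest at ZT0 and ZT24, when the day meal began, and lowest from ZT8 to ZT16.

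At ZT0 Pspc1 was at 56.5, 54.5, 50.3 and 54.0 CPM in the 4 DRF mice and at 44.3, 48.7, 46.0 and 50.6 in the 4 NRF mice, so that the groups overlapped by a single NRF mouse. At ZT4 the DRF mice were at 50.3, 53.9, 48.6 and 47.2 and the NRF mice at 51.1, 53.1, 52.9 and 53.5. The NRF mice were all above 51 CPM, and 1 of the 4 DRF mice stood above them. At ZT8 the DRF mice were at 44.7, 50.3, 48.3 and 42.8 and the NRF mice at 56.0, 53.9, 52.3 and 53.2, with every NRF mouse above every DRF mouse. At ZT12 the values were 45.4, 53.2, 45.9 and 44.4 in DRF and 54.6, 52.7, 58.1 and 52.0 in NRF. All but 1 of the DRF mice were below the NRF mice. At ZT16 they were 45.2, 47.6, 46.3 and 45.6 in DRF and 42.2, 48.4, 48.4 and 47.0 in NRF, and the regimens could not be separated. At ZT20 they were 48.8, 51.8, 50.3 and 48.2 in DRF and 41.5, 43.0, 42.8 and 41.2 in NRF, with every DRF mouse above every NRF mouse. At ZT24 they were 55.8, 50.7, 51.3 and 53.5 in DRF and 44.3, 44.8, 48.2 and 44.2 in NRF, again with no overlap and DRF higher. The order of the regimens thus turned over between ZT0 and ZT8 and once more between ZT12 and ZT20.

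On the scale of log2(CPM + 1), the difference of DRF minus NRF for Pspc1 was 0.18 ± 0.05 (SE, n = 4 and 4) at ZT0, -0.21 ± 0.06 at ZT8, -0.20 ± 0.07 at ZT12, 0.24 ± 0.03 at ZT20 and 0.22 ± 0.04 at ZT24. These are ratios of 1.13, 0.864, 0.870, 1.18 and 1.16. The DRF and NRF mice did not overlap at 3 of the 7 times, ZT8, ZT20 and ZT24. Of all genes tested, 3.98% had no overlap at 3 or more of the times, and nothing is read from the comparison for a gene chosen on it. From the lowest to the highest time point Pspc1 changed by 0.36 log2 units in NRF, a ratio of 1.28, and by 0.22 in DRF, a ratio of 1.16. The SD between mice of the same group was 0.06 in NRF and 0.08 in DRF.

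A 24-h cosine fitted to log2(CPM + 1) gave Pspc1 an amplitude (from the mean to the peak of the curve) of 0.18 ± 0.02 (SE) in NRF, with its peak at ZT8.20 ± 0.43 h, and of 0.10 ± 0.02 in DRF, with its peak at ZT0.14 ± 0.84 h. The DRF peak minus the NRF peak was -8.06 ± 0.94 h, which is earlier in DRF. Ordered by the F-test of this rhythm difference, Pspc1 ranked 4 of the 16234 genes, between Icosl and Zcchc7. Over 19 ways of processing the shift ran from -7.42 to -10.3 h. Some of these left mice out, and some left the fitted curve unchanged. The shift of -10.3 h was found when the trends of each library with GC content, length and expression were removed. There the DRF amplitude was 0.07 and the DRF peak fell at ZT21.6.

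**Figure D2:**
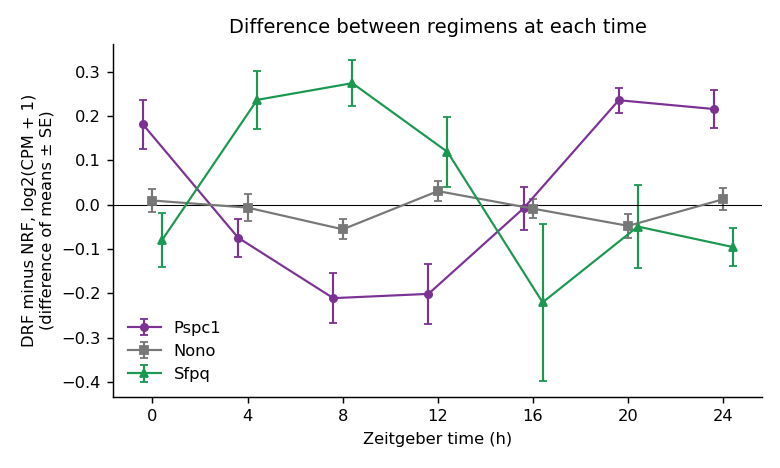
Difference of DRF minus NRF in log2(CPM + 1) (vertical axis) against zeitgeber time (h) for Pspc1, Nono and Sfpq, each point a difference of 2 means of 4 mice ± SE. Pspc1 lay at 0.24 at ZT20 and -0.21 at ZT8, Sfpq was highest at ZT8 with 0.27, and Nono stayed within 0.06 of 0.

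Counted from the start of feeding, the Pspc1 profiles lay closer together. When food became available the DRF mean was 5.76 and the NRF mean 5.79 in log2(CPM + 1), the highest of each regimen. The means were lower at each later time of the meal in both. After 8 h of food the mean was 5.57 in DRF and 5.43 in NRF, and at 16 h, during the fast, it was 5.56 and 5.75. The mean absolute difference over the 6 matched times was 0.10 by hours of feeding and 0.15 by zeitgeber time. By the fitted cosine, Pspc1 peaked 20.2 h after food onset in NRF and 0.14 h after it in DRF, so the peaks stood 3.94 h apart by meal time. Pspc1 was chosen on its rhythm difference by zeitgeber time, so a large distance by that time was part of the choice. Nothing is therefore read from the smaller distance by hours of feeding. Whether the profile follows the meal was not tested.

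**Figure D3:**
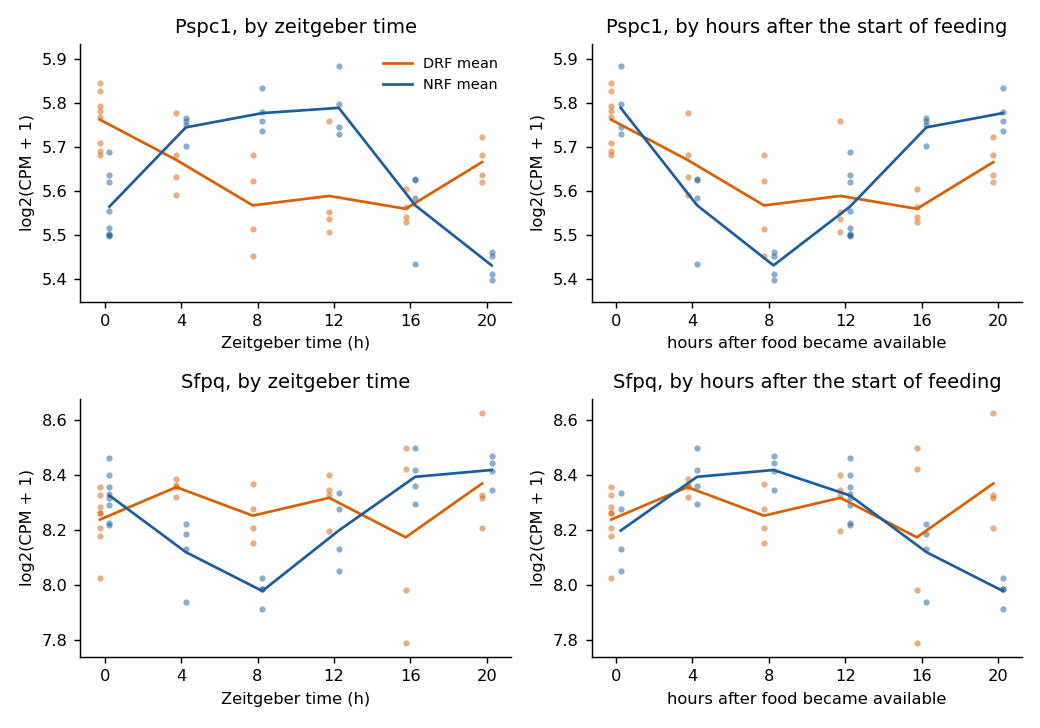
Pspc1 (top) and Sfpq (bottom) in log2(CPM + 1), plotted by zeitgeber time (left, h) and by hours after food became available (right), with points for mice and lines for means of DRF and NRF, the ZT0 and ZT24 mice pooled. By feeding time the Pspc1 lines start at 5.76 and 5.79, and the Sfpq lines part most 20 h after food, at 8.37 in DRF and 7.98 in NRF.

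Nono, whose protein is like SFPQ a PER partner, varied little in either regimen. In DRF the 28 mice ran from 198 to 225 CPM with a median of 211, and in NRF from 200.5 to 223 with a median of 212. The regimens overlapped at all 7 times. The highest and lowest group means in NRF were 217 ± 6.68 (SD, n = 4) at ZT4 and 206 ± 4.08 at ZT12, a ratio of 1.05. In DRF they were 216 ± 6.11 at ZT4 and 206 ± 6.37 at ZT20, also a ratio of 1.05. The fitted amplitude was 0.02 ± 0.01 (SE) in each regimen. The rhythm difference did not pass the threshold (limma, adjusted p = 0.995), where 11.0% of all genes did. Nono was not called rhythmic in NRF (JTK_CYCLE and Lomb-Scargle, adjusted p = 0.657) or in DRF (adjusted p = 1), against 27.5% and 0.806% of all genes. Of the 3 members it had the smallest spread, with a within-group SD of 0.04 in DRF and 0.03 in NRF in log2 units.

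Sfpq, the most abundant member and the one that carries an added glutamine- and proline-rich part, had a rhythm in NRF with lowest values at ZT8 and highest in the night. The DRF group means had no such trough at ZT8. At ZT4 Sfpq was at 333, 319, 327 and 329 CPM in the 4 DRF mice and at 290.4, 245, 298 and 279.5 in the 4 NRF mice. At ZT8 the DRF mice were at 284, 309.6, 330.0 and 295 and the NRF mice at 253, 253, 260.1 and 240.2. At both times every DRF mouse was above every NRF mouse, and 14.9% of all genes had no overlap at 2 or more of the 7 times. At ZT12 the values were 292, 337, 325 and 320.3 in DRF and 279.6, 265, 309 and 322 in NRF, and the groups overlapped.

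In the night the values were less orderly in DRF. At ZT16 Sfpq was at 343, 361, 252 and 220.4 CPM in DRF and at 314, 361, 328 and 342 in NRF. Replicates 3 and 4 of DRF were far below all the others. At ZT20 the DRF mice were at 295, 394, 318 and 321 and the NRF mice at 348, 354, 325 and 340.2, with a single DRF mouse above the whole NRF group. At ZT0 the values were 259.8, 307, 289 and 306 in DRF and 318, 312, 299 and 297 in NRF, and at ZT24 they were 295, 311, 327 and 320.2 and 322, 327, 352 and 338. The regimens overlapped at ZT0, ZT12, ZT16, ZT20 and ZT24.

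From ZT8 to ZT20 Sfpq in NRF went from 252 ± 8.28 (SD, n = 4) to 342 ± 12.6 CPM, a ratio of 1.36, and it was called rhythmic there (JTK_CYCLE and Lomb-Scargle, adjusted p = 4.57e-06). Its fitted amplitude in NRF was 0.22 ± 0.04 (SE) with a peak at ZT19.3 ± 0.60 h. In DRF the amplitude was 0.02 ± 0.04, too small for its peak time to be read, and the adjusted p was 1. The DRF amplitude was 0.06 without replicates 3 and 4 of DRF at ZT16 and 0.08 without replicate 2 of every group, 0.22 and 0.19 being the NRF amplitudes in those fits. The rhythms differed between the regimens (limma F-test, adjusted p = 0.00781). The difference was not past the threshold without the ZT8 mice (adjusted p = 0.0837), without replicate 3 (0.0906) or without replicate 4 (0.0503). At each time, the log2 difference of DRF minus NRF was 0.24 ± 0.06 (SE) at ZT4, 0.27 ± 0.05 at ZT8 and -0.22 ± 0.18 at ZT16.

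Sfpq moved with a property of the libraries. In each library the deviation of genes from their mean was regressed on GC content, and the slope was -0.13 to 0.14 log2 units per 10 points of GC percent in 54 libraries but 0.31 and 0.45 in DRF ZT16 replicates 3 and 4. Within groups, Sfpq was lower where this slope was steeper (Pearson r = -0.82 over 56 mice, -0.60 without those 2 libraries, as a description). For Pspc1 the same r was -0.32 and -0.46, and for Nono 0.25 and 0.37. The GC content of the transcripts is 42.7% for Pspc1, 48.4% for Nono and 44.1% for Sfpq, against a median of 51.0%. In NRF the mean slope was highest at ZT8, 0.05, and lowest at ZT24, -0.09, the times at which Sfpq was lowest and near its highest. The rhythm difference of Sfpq was still past the threshold without the 2 libraries (limma, adjusted p = 0.00433) and with the trends of all libraries removed (adjusted p = 0.00202). Its NRF amplitude with the trends removed was 0.19, with the peak at ZT19.5.

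In NRF, Pspc1 and Sfpq ran in opposite directions over the day. The level of Pspc1 was 21.4% of that of Sfpq in CPM at ZT8 and 12.3% at ZT20. In DRF this share moved less, from 14.8% at ZT12 to 18.6% at ZT0. The Pearson r of the 7 NRF group means was -0.88 between Pspc1 and Sfpq, 0.08 between Pspc1 and Nono and -0.42 between Nono and Sfpq. In DRF the same values were 0.04, 0.42 and -0.19. These are descriptions over 7 points, and the choice of Pspc1 enters them.

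The level over the whole day was compared apart from the rhythm, as the mean of the 7 group means. Nono differed by -0.01 ± 0.01 log2 units (SE, DRF minus NRF, limma, adjusted p = 0.665) and Sfpq by 0.03 ± 0.03 (adjusted p = 0.672), where 10.1% of all genes passed the threshold. Pspc1, given with no test, differed by 0.02 ± 0.02. With the library trends removed the Sfpq difference was 0.07 ± 0.02 and passed (adjusted p = 0.0433), and without ZT4, without ZT8 or without replicate 2 it was slightly below 0.

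The mice at ZT24 tell whether the profile closes on other animals 1 day later. Nono and Sfpq did not pass the threshold in the test of ZT24 against ZT0, which called 0.382% of all genes in DRF and 1.70% in NRF. Pspc1 at ZT24 minus ZT0 was -0.03 ± 0.05 log2 units (SE) in DRF and -0.06 ± 0.05 in NRF, with no test, because the cosine it was chosen on treats both as the same time of day. Sfpq was 0.11 ± 0.09 (limma, adjusted p = 0.598) and 0.13 ± 0.09 (adjusted p = 0.475). Nono was -0.03 ± 0.03 in both (adjusted p = 0.674 in DRF and 0.589 in NRF).

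**Figure D4:**
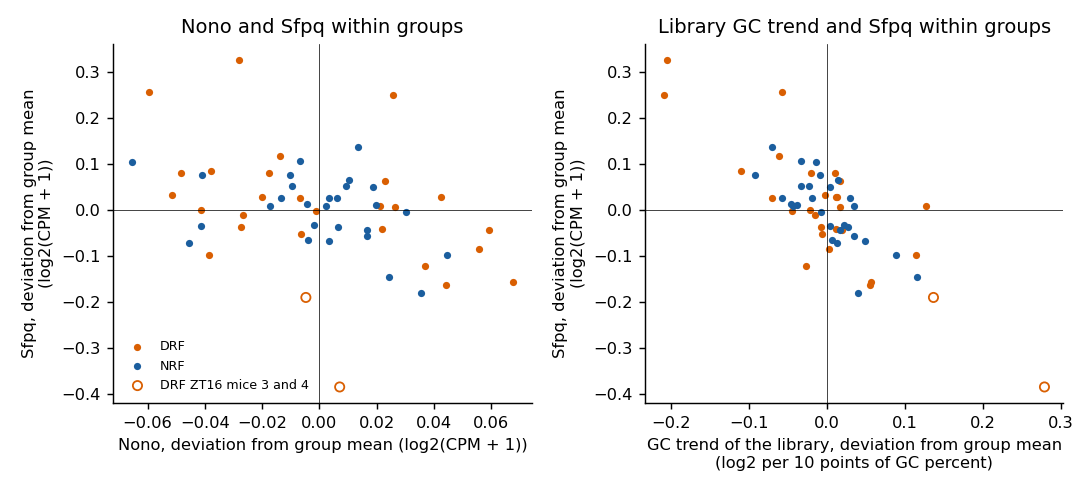
Left, Sfpq against Nono, and right, Sfpq against the GC trend of the library, each as the deviation from the mean of the 4 mice of a group (log2(CPM + 1), and log2 per 10 points of GC percent). Each point is a mouse, open circles are replicates 3 and 4 of DRF at ZT16, and r is -0.39 on the left and -0.82 on the right.

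Between mice of the same regimen and time, which the choice of the members did not use, Nono and Sfpq varied in opposite directions. Over 56 mice the Pearson r of their deviations from the group means was -0.39 (two-sided permutation test within groups, p = 0.00460, adjusted over 3 pairs 0.0138), and Spearman's rho was -0.41 (permutation p = 0.00585, adjusted 0.0175). Without the 2 mice farthest from the median of Nono, r was -0.33. For Pspc1 and Nono r was -0.35 (permutation p = 0.0247, adjusted 0.0370) and rho -0.38 (permutation p = 0.0134, adjusted 0.0201), and r was -0.27 without the 2 mice farthest from the median of Pspc1. For Pspc1 and Sfpq r was 0.18 (permutation p = 0.112, adjusted 0.112) and rho 0.21 (permutation p = 0.150, adjusted 0.150), and r was 0.13 without the 2 farthest mice.

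With the library trends removed, the pairs that include Pspc1 changed sign. Pspc1 and Nono went to 0.31 (permutation, adjusted p = 0.216) and Pspc1 and Sfpq to -0.36 (permutation, adjusted p = 0.0441), while Nono and Sfpq stayed at -0.44 (permutation, adjusted p = 0.0137). Without replicate 2, r was -0.17 for Nono and Sfpq (permutation, adjusted p = 0.373) and no pair was past the threshold. Within the regimens r for Nono and Sfpq was -0.39 in DRF (permutation, adjusted p = 0.0544) and -0.39 in NRF (permutation, adjusted p = 0.218). A correlation of this size was not rare, since 16.2% of all genes had an r with Nono, and 42.9% an r with Sfpq, of at least the size found between Nono and Sfpq. For the size found between Pspc1 and Nono the shares were 7.10% with Pspc1 and 21.4% with Nono.

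The genes whose 14 group means were most like those of each member are given with Pearson's r and no p. For Pspc1 they included Spata24 (r = 0.94), Ttc39a (0.92), Ankrd39 (0.92) and Psmf1 (0.90). Psmf1 encodes an inhibitor of the proteasome. For Sfpq they were Srek1 (0.96), Stk4 (0.95), 9330159F19Rik (0.95), Atad2 (0.94) and Iws1 (0.94). Srek1 encodes a splicing regulator and Iws1 a partner of elongating RNA polymerase. For Nono they included Sox3 (0.87), Gal (0.86), Tekt2 (0.85) and Creb3l1 (0.85), and their likeness is to a profile that hardly moved.

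**Figure D5:**
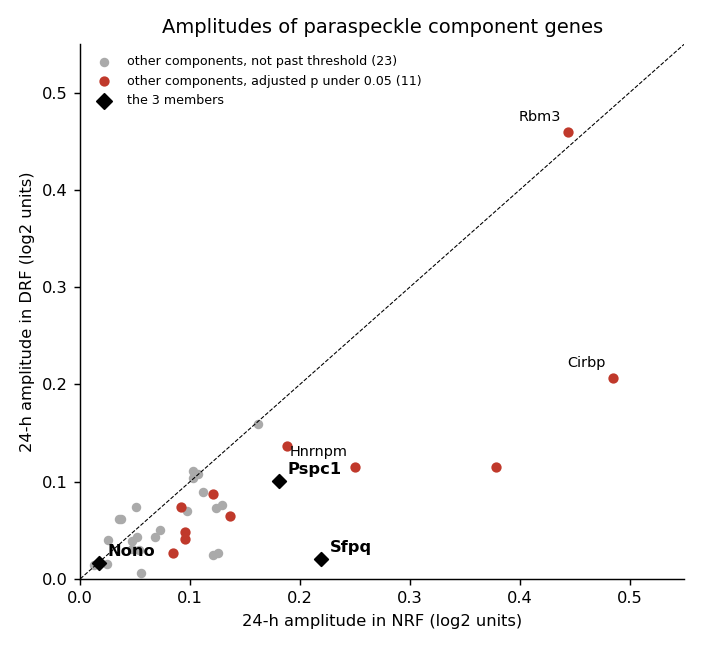
Amplitude of the fitted 24-h cosine (log2 units) in DRF (vertical axis) against NRF (horizontal axis) for Pspc1, Nono and Sfpq (diamonds) and for 34 other paraspeckle component genes, coloured where the rhythm difference passed the threshold (11 genes). The dashed line marks equal amplitudes. Cirbp and Hnrnpm lie below it, and Rbm3 lies close to it at 0.44 in NRF and 0.46 in DRF.

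A list of 35 other components of paraspeckles, or proteins known to bind them, was set beside the members, with 34 of them tested and Neat1 not analysed here. The list was chosen with earlier results of these data known, so its shares beside all genes are given as a description. The rhythm differed between the regimens for 11 of the 34 (32.4%), beside 11.0% of all genes tested. They included Rbm3, Cirbp, Hnrnpm, Akap8l, Ewsr1, Hnrnph3, Hnrnpf, Smarca4, Srsf10 and Hnrnpa1. The count was 7 without replicate 1, 6 without replicate 3 or replicate 4, and 7 without ZT0 or ZT24. In 10 of the 11 the amplitude was smaller in DRF, as in 82.7% of all genes with a difference. Of the list, 23 were called rhythmic in NRF (67.6%, beside 27.5% of all genes) and 1 in DRF (2.94%, beside 0.806%). The exception in DRF was Rbm3. Of the 23, 15 peaked in NRF between ZT18 and ZT24, as Sfpq did, 5 between ZT6 and ZT12, as Pspc1 did, and 3 at other times. Of the 4463 genes called rhythmic in NRF and fitted, 2347 peaked between ZT18 and ZT24, 1339 between ZT6 and ZT12 and 777 at other times, so most of them too peaked late in the night, and nothing particular to the list is read from its split. The median amplitude was 0.10 in NRF and 0.06 in DRF over the list, and 0.07 and 0.06 over all genes. The mean level was higher in DRF for 7 of the 34 and lower for 1, beside 5.46% and 4.68% of all genes. These 8 calls fell to 2 without the 2 DRF libraries of ZT16 with the steep GC slope, and to between 1 and 6 when 1 replicate was left out.

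Rbm3 and Cirbp were among the genes of the list with the smallest p for the rhythm difference. Both were highest at ZT0 and lowest at ZT16 in DRF, as Pspc1 was, and highest at ZT8 or ZT12 in NRF. Their ZT0 level in DRF did not return in the ZT24 mice. At ZT24 minus ZT0 in DRF, Rbm3 was -0.82 ± 0.14 log2 units (SE, limma, adjusted p = 0.00402). Cirbp was -0.51 ± 0.11 (limma, adjusted p = 0.0214), where 0.382% of all genes were called. For Pspc1 this difference was -0.03 ± 0.05, with no test. The fitted cosine treats ZT0 and ZT24 as the same time of day. Cirbp and Rbm3 encode cold-inducible RNA-binding proteins, which rise when body temperature falls. Cirbp was at 92.2 ± 2.46 CPM (SD, n = 4) at ZT8 and 50.3 ± 2.25 at ZT20 in NRF, and at 98.7 ± 10.6 at ZT0 and 58.7 ± 4.79 at ZT16 in DRF (limma, adjusted p = 2.77e-05). Rbm3 was at 94.3 ± 17.9 at ZT12 and 42.8 ± 3.01 at ZT24 in NRF, and at 94.1 ± 7.52 at ZT0 and 43.7 ± 8.04 at ZT16 in DRF (limma, adjusted p = 1.12e-05). The Rbm3 amplitude was 0.44 in NRF and 0.46 in DRF, so its difference lay in the time of the peak, at -6.88 ± 0.84 h (SE) for DRF minus NRF. For Cirbp the fitted peaks differed by -4.87 ± 0.99 h. Cirbp was not called rhythmic in DRF (JTK_CYCLE and Lomb-Scargle, adjusted p = 0.122), so no shift is read from its DRF peak time. Rbm3, Cirbp, Hnrnpm and Akap8l were past the threshold under all 20 ways of processing, and Ewsr1, Hnrnph3, Hnrnpf, Smarca4, Srsf10 and Hnrnpa1 under 10 to 19 of them.

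The remaining core components did not pass the test of the rhythm difference. Dazap1, whose protein is needed for intact paraspeckles, had an amplitude of 0.12 in NRF and 0.02 in DRF (limma, adjusted p = 0.0804). Hnrnpk, whose protein acts on the processing of Neat1, had 0.04 and 0.06 (adjusted p = 0.0906), Rbm14, needed for paraspeckle assembly, 0.13 and 0.08 (adjusted p = 0.173), and Matr3, a nuclear matrix protein gene, 0.10 and 0.11 (adjusted p = 0.289). Matr3 in DRF was lowest at ZT16, where its mice ran from 242 to 541 CPM, a spread that Sfpq showed at the same time.

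Of the genes of the PER partners, Per2 did not pass the test of the rhythm difference and Per1 did. Per2 peaked at ZT14.9 ± 0.43 h (SE) in NRF and ZT14.4 ± 0.53 h in DRF, with an amplitude of 0.27 and 0.23 (limma, adjusted p = 0.605). Per1 peaked at ZT12.4 ± 0.66 h in NRF with an amplitude of 0.27, and its amplitude was 0.08 in DRF (limma, adjusted p = 0.0108).

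The libraries held 29591263 to 34493346 normalized reads, and log2(CPM + 1) correlated at 0.984 to 0.998 between the 84 pairs of mice of a group. The defining markers of the anterior hypothalamus (9 of 9) and of neurons (5 of 5) were detected. Summed over the 9 anterior hypothalamic markers, CPM per kilobase ran from 504 to 1324 across the DRF mice and from 556 to 1364 across the NRF mice, and over the 2 markers of striatum from 8.90 to 98.5 and from 8.05 to 51.7, and the regimens overlapped. The 4 oligodendrocyte markers summed to 714 to 1177 CPM per kilobase in NRF mice and 535 to 1131 in DRF mice. The part of this variation in the results was not tested. Sfpq shares 216 exon bases with the gene Gm12940 on the same strand, so reads there cannot be assigned with certainty.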

How the data were processed

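The authors cleaned reads with SOAPnuke, mapped them to GRCm38.p6 with HISAT2 and Bowtie2, estimated counts with RSEM, normalized them by TMM in edgeR and deposited 1 value per gene and mouse named TPM. These deposited values are treated as a score, since they are log2(CPM + 1) over gene length, scaled so that each mouse sums to nearly the same total (median relative deviation 1.97e-08). Undoing those steps gave normalized reads, CPM and log2(CPM + 1) for 17549 of 17564 genes, most of them with GENCODE M21 lengths. For 1041 genes, among them Hnrnpm, Akap8l and Matr3, another length was used that gave whole reads. For 406 genes another length gave reads to 2 decimals, and for 254 the GENCODE length was used unchecked. Pspc1 and Nono resolved into whole reads in all 56 mice, within 0.0052 of a read. Sfpq did so in only 6 of the 56 mice, so its length could not be checked in this way. The CPM values and fitted amplitudes of Sfpq rest on that length. The reads were not run through a count model, because the deposited unit is not counts. Strand use in the counting is not given in the sources used here.

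A gene was kept if 80% or more of the mice had a value of 1 or higher, and 16234 of the kept genes had a length. Rhythm differences (24-h cosine and sine terms per regimen), daily means (mean of 7 group means) and ZT24 against ZT0 were tested with limma 3.58.1 in R 4.3.3 on log2(CPM + 1) over all 56 mice. Rhythm within a regimen was tested on the deposited values of 16245 genes with an own implementation of JTK_CYCLE and Lomb-Scargle for periods of 20 to 28 h, combined by Fisher's method. These p-values were adjusted by Benjamini-Hochberg over all genes tested, and those of the within-group correlations over the 3 pairs, with a threshold of 0.05. Within-group correlations used deviations from the 14 group means and 100000 shuffles within groups. The scripts were tested on simulated data. The members and the gene lists were chosen with earlier results of these data known, so Pspc1 was not tested for its rhythm or level. Named genes were the 3 members, the list's 3 smallest p-values for the rhythm difference, Rbm14, Hnrnpk, Matr3 and Dazap1, Per1 and Per2, and 5 genes most like each member. Results of some genes these rules would name are not reported here, though the list's counts cover all its genes. Promoters are from RefSeq on GRCm38.p6.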

Additional observations from a re-analysis of the deposited data

Results flagged for a closer look

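In Pspc1, the third NRF mouse at ZT24 stood apart from the other 3 of its group, at 48.2 CPM against 44.2 to 44.8 (ratio of the gap to the range 0.84). It was the only such value among 42 groups of 4 mice tested, where chance alone gives about 1 in 20. The rhythm of Sfpq differed between DRF and NRF (limma, adjusted p = 0.00781), with an amplitude of 0.22 in NRF and 0.02 in DRF, where the latter was 0.06 without replicates 3 and 4 of DRF at ZT16 and 0.08 without replicate 2 of every group. The same test passed for Rbm3 (adjusted p = 1.12e-05) and Cirbp (adjusted p = 2.77e-05) among the other paraspeckle components.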

How the results depend on the processing

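Of 342 recomputed values, 262 kept their direction and their side of the threshold or their size. The replicate numbers did not pair the mice, since the median correlation of deviations was 0.0059 between mice with the same number and -0.0047 between others. With the replicate number as a block, the rhythm difference was called for 1695 genes and for Sfpq at an adjusted p of 0.00900, and the block changed no call of a member.

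The rhythm difference was called for 1783 genes, for 944 without ZT0, 1162 without ZT24, 2680 with the library trends removed and 415 to 1537 without 1 replicate. Among the paraspeckle components it was 11, with 7 without ZT0, 7 without ZT24 and 6 to 10 without 1 replicate. The size of the difference of the 24-h terms for Sfpq was 0.23, and it was not past the threshold without ZT8 (0.23, adjusted p = 0.0837) or without replicate 3 or 4 (adjusted p = 0.0906 and 0.0503), with 0.21 to 0.26 without 1 replicate. For Pspc1 the size was 0.25, and 0.059 on the compressed scale of log2(deposited value + 1). The limma F-test of the 24-h terms called 632 genes in DRF against 131, JTK_CYCLE alone called 61, and the Lomb-Scargle periodogram alone called 0 in DRF and 0 in NRF (211 and 3280 at an unadjusted p under 0.05), with Sfpq in NRF at an adjusted p of 0.0576. Without 1 replicate, 26 to 35 genes were called in DRF and 2165 to 3339 in NRF, against 4467.

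The mean level was called for 1646 genes, for 926 without ZT0, 1071 without ZT4, 1073 without ZT20 and 296 to 2212 without 1 replicate. Of the paraspeckle components 8 were called, with 4 without ZT4, 4 without ZT12, 5 without ZT16, 3 without ZT20, 5 without ZT24, 2 without the DRF ZT16 libraries 3 and 4, and 1 to 6 without 1 replicate. The Nono difference turned to 0.0015 on log2(deposited value + 1) and to 0.011 with the library trends removed, and it ran from -0.018 to 0.0042 without 1 replicate. The Sfpq difference turned to -0.0086 without ZT4 and -0.015 without ZT8, ran from -0.016 to 0.046 without 1 replicate, and was past the threshold at 0.072 with the library trends removed. ZT24 against ZT0 was called for 62 genes in DRF and 276 in NRF, for 37 and 609 on log2(deposited value + 1), for 214 and 53 with the library trends removed, and for 0 to 82 in DRF and 0 in NRF without 1 replicate, where limma gave an unadjusted p under 0.05 to 1363 to 2551 genes in DRF and 2231 to 2440 in NRF. On log2(deposited value + 1) this contrast turned to 0.0018 in DRF and 0.00051 in NRF for Pspc1, and to 0.0025 and 0.0097 for Nono, not past the threshold.

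The within-group correlation of Pspc1 and Nono was not past the threshold without ZT8 (-0.32), ZT12 (-0.25), ZT16 (-0.27) or ZT20 (-0.31) or in DRF mice (-0.28), ran from -0.58 to -0.24 without 1 replicate, and turned to 0.31 with the library trends removed. That of Pspc1 and Sfpq was past it without ZT0 (0.25), ran from -0.032 to 0.28 without 1 replicate, and turned to -0.36 with the library trends removed. That of Nono and Sfpq was not past it in DRF mice (-0.39) or NRF mice (-0.39), and ran from -0.48 to -0.17 without 1 replicate. The cause of these changes was not tested, and the settings that leave some mice out also rest on fewer mice. Leaving out the DRF ZT16 libraries and removing library trends were chosen after seeing the data.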

Other observations

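Among the other components with a rhythm difference, 3 genes of heterogeneous nuclear ribonucleoproteins, singled out after their values were seen, peaked in the NRF night as Sfpq did. Hnrnpm, a splicing regulator gene, had an amplitude of 0.25 in NRF with its peak at ZT20.4 and of 0.11 in DRF with its peak at ZT15.6 (limma, adjusted p = 8.13e-05). Hnrnph3 had 0.14 at ZT20.6 in NRF and 0.06 at ZT15.3 ± 1.59 h (SE) in DRF (limma, adjusted p = 0.0225). The call held under 15 of 20 ways of processing, with an adjusted p of up to 0.180. Hnrnpf had 0.10 at ZT18.7 in NRF and 0.04 at ZT13.5 ± 1.75 h in DRF (limma, adjusted p = 0.0271). That call held under 11 of 20, with up to 0.207. None of these 3 genes was called rhythmic in DRF by JTK_CYCLE and Lomb-Scargle, so no shift is read from their DRF peak times. Hnrnpa1 was different, with its NRF peak at ZT9.79 (limma, adjusted p = 0.0410), a call that held under 10 of 20, with an adjusted p of up to 0.306.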
